A study of Homo sapiens with 6 samples.

Results

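Immediate early genes are switched on within minutes of a growth factor, serum or stress signal, without the need for new protein synthesis. The genes described here are EGR1, EGR2, EGR3, FOS, FOSB, FOSL1, JUN, JUNB, IER2 and KLF6, chosen by symbol, and 9 of the 10 had a cluster, 1 each, among the 18372 genes measured. EGR2 had no cluster with a single symbol, and its expression was not analysed here. HepG2, a human hepatoma cell line, was grown in DMEM with foetal bovine serum and antibiotics. Leaf-treated cells received 50 µg/ml of the water extract of Barringtonia racemosa leaf for 24 h (3 arrays), and the other cells were left untreated (3 arrays). The labels name no vehicle for the untreated cells, and the cells were lifted with trypsin and pelleted before RNA was extracted. The extract is a mixture, so that no single compound can be named as the agent.

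The EGR proteins are zinc finger transcription factors that bind GC-rich sites. FOS, FOSB and FOSL1 have leucine zippers and pair with JUN or JUNB to form AP-1, a dimer that binds the sequence TGAGTCA and its relatives. KLF6 is a zinc finger factor of the Krüppel-like family, and IER2 is a small nuclear protein induced by growth factors. ERK signalling through serum response factor and its ETS partners, and CREB, drive much of their early transcription. In liver this group is known for its rapid rise after injury and partial hepatectomy. The messengers of most of these genes are short-lived, and a sample taken after a day of treatment can therefore hold levels unlike those of the first hour.

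EGR1 and KLF6 had the largest differences between leaf-treated and untreated cells among these genes. Their upstream sequences are shown because each, within the bases searched, holds a motif found in none of the other measured genes with a sequence. The 250 bases before the start of each gene come from RefSeq (GRCh38.p14) and are given in the direction of the gene. EGR1 lies on the plus strand (chr5:138465229-138465478) and KLF6 on the minus strand (chr10:3785210-3785459). The capitals mark CArG boxes, the sites of serum response factor, in EGR1, and an EGR site (GCGTGGGCG or GCGGGGGCG) in KLF6.
EGR1: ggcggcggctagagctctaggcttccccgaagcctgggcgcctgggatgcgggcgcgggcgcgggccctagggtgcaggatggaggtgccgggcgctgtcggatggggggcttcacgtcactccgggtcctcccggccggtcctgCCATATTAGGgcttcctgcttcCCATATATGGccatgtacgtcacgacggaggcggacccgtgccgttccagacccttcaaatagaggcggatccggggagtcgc
KLF6: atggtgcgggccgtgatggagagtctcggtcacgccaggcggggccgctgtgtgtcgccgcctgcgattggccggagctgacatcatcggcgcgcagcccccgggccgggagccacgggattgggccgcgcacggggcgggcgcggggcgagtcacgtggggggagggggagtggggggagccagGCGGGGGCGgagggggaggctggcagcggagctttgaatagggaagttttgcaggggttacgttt

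The window of EGR1 held 2 CArG boxes, with first bases 105 and 83 bases before the start. Every motif was searched on both strands, and a CArG box was found in 1.16% of 35116 windows of the same length. EGR2, whose expression was not analysed here, had 3 windows, and these held 1 CArG box. Bases farther upstream were not searched in any gene. The search therefore cannot decide whether control by serum response factor sets EGR1 apart from the other genes. The EGR site of KLF6 began 65 bases before the start, and 5.37% of windows held such a site. It shared 5 bases with a GC box (GGGCGG, in 42.6% of windows), the letters that SP1 and related factors bind. Of the 9 measured genes, 7 had a window, and EGR3 and FOSL1 did not. A GC box was in 5 of the 7. The core of the cyclic AMP response element (TGACG, in 21.2% of windows) was in 6 of the 7, all but KLF6, and in JUN it shared 1 base with a GC box. The full element (TGACGTCA) and the AP-1 sites TGAGTCA and TGACTCA were in 0 of the 7, against 1.65% and 4.2% of all windows. FOS, FOSB and JUNB had a TATA box (TATAAA, in 10.7% of windows). These matches are letters in a window and not measured sites of binding.

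The array values are log2 expression of a transcript cluster, the set of probes that stands for a gene, so that a difference of 1 is 2 fold. The genes were proposed after the comparison of leaf-treated with untreated cells had been seen. Their differences are therefore given as descriptions, with the mean, SD and standard error but no p-value for a gene. As a stand-in for background, the 95th percentile of olfactory receptor clusters was 3.25 to 3.49 on the leaf-treated arrays and 3.22 to 3.35 on the untreated arrays. The liver identity of the cells was plain: 9 of 9 measured hepatocyte markers, among them ALB, AFP, APOA1 and TTR, were above this level on every array. Leaf-treated array 2 stood closer to the untreated arrays than to its own group. Its root mean square difference over all clusters was 0.21 to 0.23 from the 3 untreated arrays, and 0.28 and 0.30 from leaf-treated arrays 1 and 3. For the 9 genes, results that rest on this array are given with and without it.

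EGR1, a factor that relays growth and stress signals to other genes, had the largest difference of the 9. It read 8.08, 8.04 and 7.85 in the 3 leaf-treated samples and 7.14, 7.30 and 7.03 in the 3 untreated samples. Every leaf-treated sample lay above every untreated one, with a gap wider than the range within either group. The means were 7.99 ± 0.12 in leaf-treated and 7.16 ± 0.14 in untreated cells (SD, n = 3 each), a log2 difference of 0.83 (standard error 0.10) or 1.78 fold. By size of increase it was number 11 of 19291 clusters. Leaving out any 1 array gave 0.77 to 0.90, and leaf-treated array 2 on its own gave 0.88. EGR1 was thus as high on the array that otherwise resembled untreated cells as on the other 2.

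KLF6, which is known from the early response of liver stellate cells to injury and can restrain proliferation, followed with a smaller difference. Its values were 5.14, 5.20 and 5.16 in leaf-treated samples, against 4.55, 4.70 and 4.85 in untreated samples. The leaf-treated samples were nearly alike and all lay above the untreated ones, which were spread more widely. Leaf-treated cells averaged 5.17 ± 0.032 and untreated cells 4.70 ± 0.15 (SD, n = 3 each), a log2 difference of 0.47 (standard error 0.090) or 1.38 fold. The value was 0.39 to 0.54 with any 1 array left out, and 0.50 with leaf-treated array 2 as the only treated array.

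EGR3, a close relative of EGR1 that binds the same kind of site, read near background. It had 3.44, 3.19 and 3.43 in leaf-treated samples, against 3.18, 2.98 and 3.13 in untreated samples. The groups did not overlap, but the lowest leaf-treated value was only just above the highest untreated one. Of the 6 arrays, only leaf-treated array 1 put EGR3 above the background stand-in. Its log2 difference was 0.26 (standard error 0.098), 0.34 without leaf-treated array 2 and 0.097 with that array alone. The medians over all tested clusters were 3.81, 3.75 and 3.83 on the leaf-treated arrays, against 3.71, 3.74 and 3.74 on the untreated arrays. After each array was centred on its median, the EGR3 groups overlapped.

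**Figure D1:**
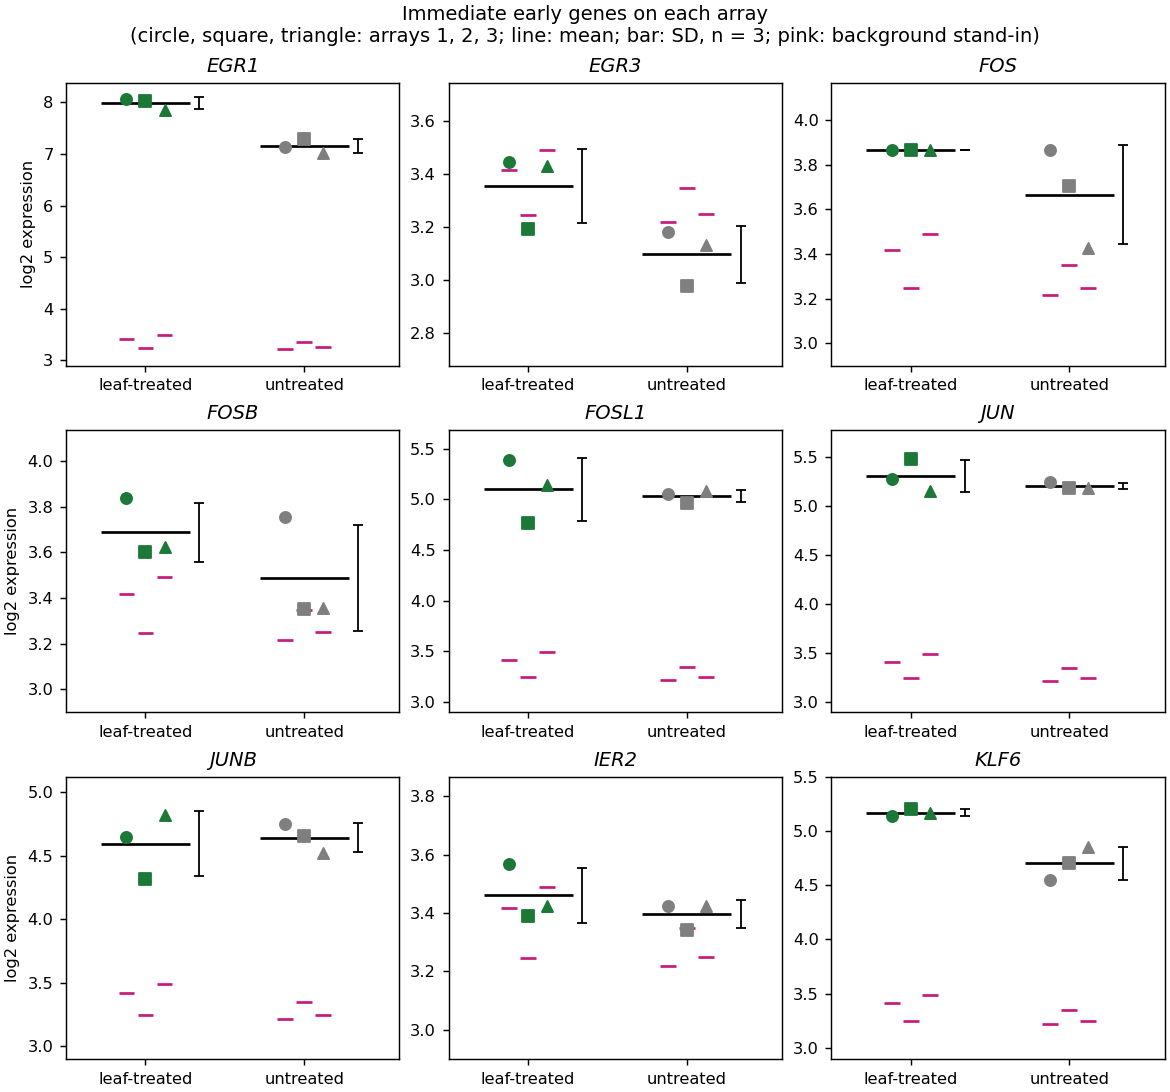
Log2 expression of the 9 measured genes (y axis, a separate scale in each panel) in leaf-treated and untreated HepG2 cells. Circles, squares and triangles are arrays 1, 2 and 3, the black line is the group mean, the bar beside it is the SD (n = 3) and the pink marks are the 95th percentile of olfactory receptor clusters on each array. EGR1 and KLF6 stand well above the pink marks with groups that do not overlap. The groups of EGR3 do not overlap either, but EGR3 lies below the pink mark on every array except leaf-treated array 1. IER2 lies near the pink marks.

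FOS, the founding FOS-side partner of AP-1, had only 3 distinct values on the 6 arrays. It was 3.87 in all 3 leaf-treated samples, and 3.87, 3.70 and 3.43 in the untreated samples. The 3 leaf-treated values and that of untreated array 1 are one and the same number in the deposited table. That number also appears on at least 1 array in 76 of the 28829 rows above 0, and it is the value of FOSL2 on 2 arrays. Of all tested clusters, 1.52% hold 1 value on every leaf-treated array, and 41.1% hold fewer than 6 distinct values, as did 2 of the 9 genes, FOS and IER2. The SD of 0 for FOS in leaf-treated cells is therefore not a measure of their biological spread. Its log2 difference was 0.20 (standard error 0.12), 0.30 without untreated array 1 and 0.081 without untreated array 3, and the groups touched.

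FOSB, a close relative of FOS, gave 3.84, 3.60 and 3.62 in leaf-treated samples and 3.75, 3.35 and 3.36 in untreated samples. Untreated array 1 lay within the leaf-treated range, and the other untreated values lay below it. FOSB was above the background stand-in on all 6 arrays, but on untreated array 2 only just, at 3.353 against 3.349. The log2 difference was 0.20 (standard error 0.13), and it was 0.33 without untreated array 1, 0.13 without leaf-treated array 1, and 0.13 without untreated array 2 or 3. Untreated array 1 was also the highest of the untreated ones for FOS.

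FOSL1, a FOS family member that lacks the strong activation domain of FOS, showed the widest spread of the leaf-treated values. It was 5.39, 4.77 and 5.14 in leaf-treated samples, against 5.05, 4.97 and 5.08 in untreated samples. Leaf-treated array 1 was the highest of the 6 and leaf-treated array 2 the lowest, so that the untreated values fell between them. Its SD was 0.31 in leaf-treated and 0.059 in untreated cells (n = 3 each), and its log2 difference was 0.067 (standard error 0.15). The difference was 0.23 without leaf-treated array 2 and -0.076 without leaf-treated array 1.

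JUN, the main DNA-binding partner of the FOS proteins, measured 5.27, 5.48 and 5.16 in leaf-treated samples and 5.24, 5.19 and 5.18 in untreated samples. Leaf-treated arrays 1 and 2 lay above all untreated samples, array 1 by little, and array 3 lay below them. The log2 difference was 0.098 (standard error 0.094), and it was 0.011 without leaf-treated array 2, the highest for JUN, and 0.17 without leaf-treated array 3.

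JUNB, which competes with JUN for FOS proteins and often tempers its activity, was the only measured gene of the 9 with a lower mean in leaf-treated cells. It read 4.65, 4.32 and 4.82 in leaf-treated samples, against 4.75, 4.66 and 4.52 in untreated samples. The groups overlapped, and leaf-treated samples gave both the highest and the lowest value. The log2 difference of -0.046 (standard error 0.14) was 0.094 without leaf-treated array 2, 0.0072 without untreated array 1 and -0.16 without leaf-treated array 3. On leaf-treated array 2, JUN and JUNB departed in opposite ways from the mean of leaf-treated arrays 1 and 3. The log2 departure was 0.26 for JUN and -0.42 for JUNB, where the median over all clusters was 0.

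IER2, named above as a small nuclear protein, was 3.57, 3.39 and 3.42 in leaf-treated samples and 3.42, 3.34 and 3.42 in untreated samples. Leaf-treated array 3 and untreated arrays 1 and 3 again hold 1 identical number. IER2 was above the background stand-in on 4 of the 6 arrays, and its log2 difference of 0.064 (standard error 0.074) was 0.010 to 0.099 with any 1 array left out and -0.0021 after quantile normalization.

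**Figure D2:**
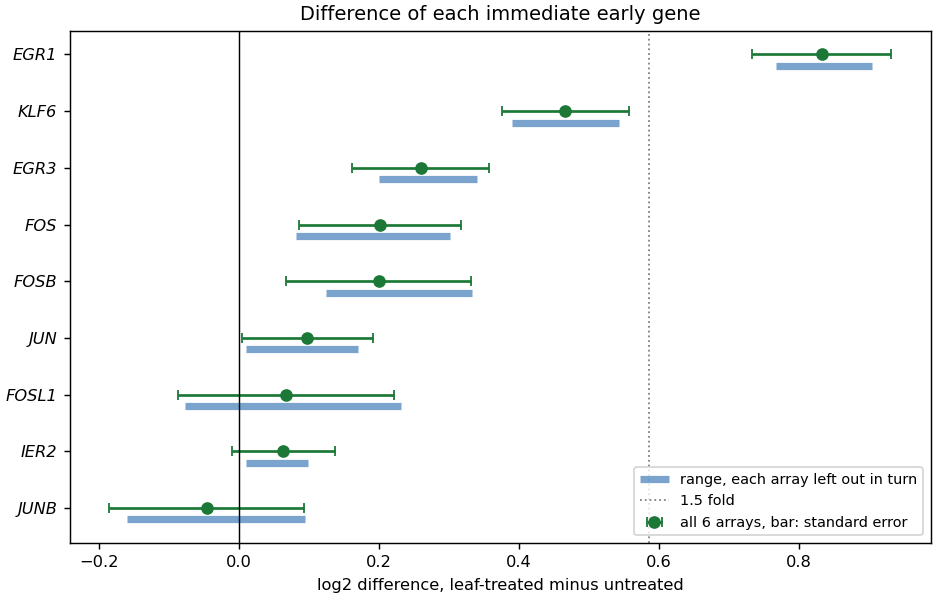
Log2 difference of each gene, leaf-treated minus untreated (x axis). Points use all 6 arrays with the standard error as a bar, blue bars are the range when each array is left out in turn, and the dotted line is 1.5 fold. EGR1 alone lies past 1.5 fold, KLF6 follows, and the ranges of FOSL1 and JUNB cross 0.

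Across the 9 genes the mean was higher in leaf-treated cells for 8, where 53.2% of all tested clusters were higher. The median log2 difference was 0.20, against 0.011 over all 19291 clusters. On the single arrays, the median departure of the 9 genes from the untreated mean was 0.35, 0.11 and 0.18 on leaf-treated arrays 1, 2 and 3. Groups did not overlap for 3 of the 9, EGR1, KLF6 and EGR3, each higher in leaf-treated cells, and for 0 in the other direction, where the background was 6.14% of clusters higher and 7.41% lower. Without leaf-treated array 2 this was 4 of the 9, with FOSL1 added, where the background was 17%. After centring on the median it was 2 of the 9, EGR1 and KLF6, and after quantile normalization JUN took the place of EGR3. The series sets its thresholds at 1.5 fold with an unadjusted p under 0.05, and of the 9 genes only EGR1 passed both. Of all clusters 0.84% passed, 0.27% higher and 0.57% lower. With Benjamini-Hochberg adjustment over all clusters in limma, 0 of the 9 were called, where 0.00518% of clusters, 1 cluster that was lower, were called, and 3 of the 9 were higher and 0 lower at an unadjusted p under 0.05, where 3.87% of clusters were higher and 5.9% lower. Since the genes were proposed from this comparison, nothing is read from these counts.

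EGR4, FOSL2 and JUND belong to the same families and were not among the chosen genes. EGR4 measured 5.21, 4.03 and 4.62 in leaf-treated samples and 4.05, 4.25 and 4.56 in untreated samples. Its leaf-treated values spanned 1.17 and enclosed all untreated ones, and the log2 difference was 0.34 (standard error 0.30). JUND, the most constitutive of the JUN genes, gave 5.07, 4.69 and 5.17 in leaf-treated samples, against 4.71, 4.88 and 4.76 in untreated samples. Here too leaf-treated array 2 was the lowest of the 6, as it was for FOSL1, JUNB and EGR4. The log2 difference of JUND was 0.19 (standard error 0.13) with groups that overlapped. For JUND and EGR4 the difference without leaf-treated array 2 was not computed. FOSL2 had a log2 difference of 0.036 (standard error 0.095) with groups that overlapped. In EGR1 and KLF6, leaf-treated array 2 lay above the mean of the other leaf-treated arrays, by 0.072 and 0.052 on the log2 scale.

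The genes whose pattern over the 6 arrays was most like that of EGR1, by the root mean square difference of values centred on each gene's mean, were MAP1B (0.077), BNIP3L (0.087) and GCNT3 (0.10). MAP1B encodes a microtubule-associated protein, BNIP3L a mitophagy receptor and GCNT3 a mucin glycosyltransferase. Their log2 differences were 0.83, 0.79 and 0.68. For KLF6 the nearest were PCSK4 (0.051), RGS16 (0.057) and RELB (0.060), with log2 differences of 0.45, 0.38 and 0.37. PCSK4 is a proprotein convertase, RGS16 a regulator of G protein signalling and RELB a subunit of NF-kB. All 6 were picked for likeness out of 19291 clusters and follow the same 2 groups, so that their differences follow from the search.

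**Figure D3:**
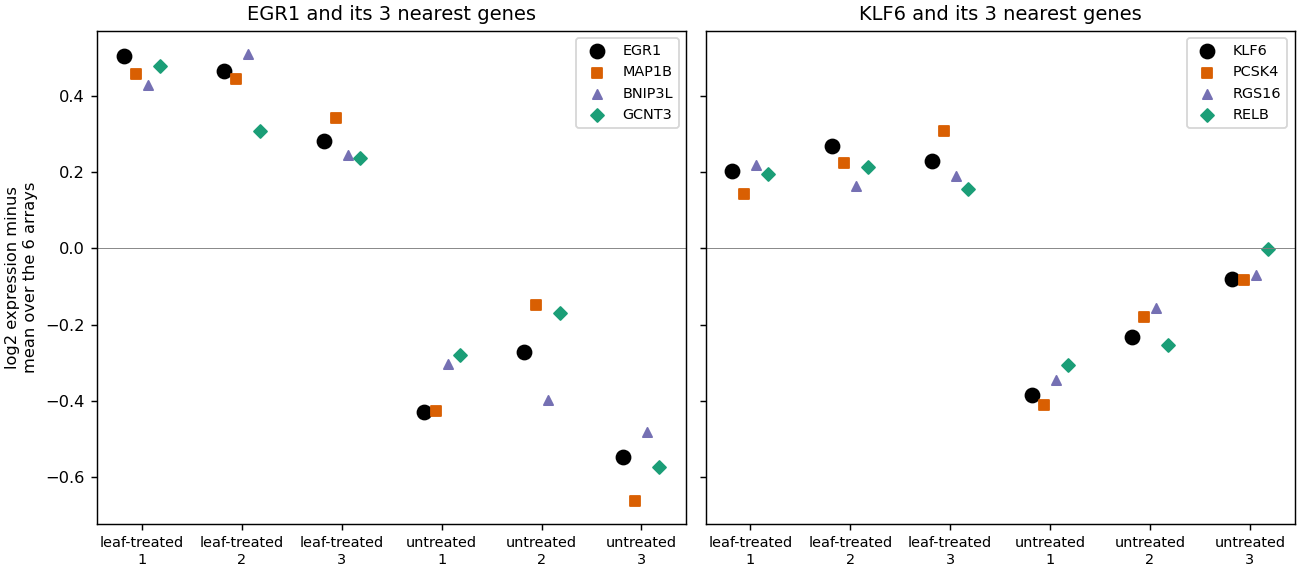
Log2 expression of EGR1 (left) and KLF6 (right), each with its 3 nearest genes, as the departure from the gene's own mean over the 6 arrays (y axis), for each array (x axis). The 3 leaf-treated arrays lie above the 3 untreated ones for all 8 genes, with the wider step in the EGR1 panel.

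Other immediate early genes, from a list that holds 36 genes of which 35 were measured, were mostly higher by small amounts. Of the 35, 0 were called in limma after adjustment in either direction, 11 were higher at an unadjusted p under 0.05 and 0 were lower, where 3.87% of all clusters were higher and 5.9% lower at that level. By the series' analysis of variance 5 of the 35 were higher at that level and 0 lower, where 478 of the 19291 clusters were higher. The mean was higher in leaf-treated cells for 30 of the 35, with a median log2 difference of 0.17, against 0.011 over all clusters. Of the 35, 27 were above the background stand-in on every array and 4 on none. The 3 genes with the smallest p had groups that did not overlap. RHOB, a short-lived small GTPase, measured 6.26, 6.07 and 6.08 in leaf-treated samples and 5.77, 5.89 and 5.81 in untreated samples, a log2 difference of 0.31 (adjusted p = 0.41 from limma). DUSP1, the phosphatase that switches off MAP kinases, measured 5.70, 5.97 and 5.87 in leaf-treated samples and 5.59, 5.44 and 5.51 in untreated samples, a log2 difference of 0.34 (adjusted p = 0.44 from limma). CCN2, a matricellular protein that responds to YAP and TGF-beta, averaged 7.23 ± 0.10 in leaf-treated and 6.97 ± 0.022 in untreated cells (SD, n = 3 each, adjusted p = 0.45 from limma). The largest difference of the list, named after its values were seen, was 0.48 for CCN1, a relative of CCN2.

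Several classical members of that list did not share the direction. NR4A1 and NR4A3, orphan nuclear receptors, had log2 differences of -0.077 (standard error 0.096) and -0.064 (0.073). Their relative NR4A2, 1 of the 11 genes counted above, had 0.26 with groups that did not overlap, but was not above the background stand-in on any array. ZFP36, which speeds the decay of AU-rich messengers, had -0.10 (0.12). MYC had -0.15 (0.081) and IER5 -0.098 (0.12). Of these lower genes, only MYC departed by more than its standard error. These genes were also named after their values were seen. The count of 11 genes was 15 after quantile normalization and 4 after centring on the median, where the count over all clusters was 746 and became 914 and 376. It was 13 without leaf-treated array 2, 7 without leaf-treated array 1 or 3, 7 without untreated array 1, and 6 without untreated array 2 or 3. Over all clusters the count was 1598 without leaf-treated array 2, 623 and 696 without leaf-treated arrays 1 and 3, and 393, 470 and 506 without untreated arrays 1, 2 and 3.

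Of the upstream factors and kinases, 17 were measured and 0 were called, with a median log2 difference of 0.029. At an unadjusted p under 0.05, 3 were higher and 0 lower, where 3.87% of all clusters were higher and 5.9% lower. EGFR, the receptor of epidermal growth factor, stood at 4.83, 4.89 and 4.84 in leaf-treated samples, against 4.43, 4.48 and 4.22 in untreated samples. These groups did not overlap, and the log2 difference was 0.48 (adjusted p = 0.33 from limma). MAP2K1, which activates ERK, read 6.34, 6.34 and 6.32 in leaf-treated samples and 5.99, 5.69 and 6.12 in untreated samples, a log2 difference of 0.40 (adjusted p = 0.46 from limma). MAPK7, also named ERK5, had 0.34, with leaf-treated array 2 and untreated array 3 both at 3.61. Groups did not overlap for 2 of the 17 in each direction, where the background was 6.14% of clusters higher and 7.41% lower. The 2 lower genes of the 17, named after their values were seen, were the JNK genes MAPK8 and MAPK9, with log2 differences of -0.27 and -0.062. The median of this list was -0.036 after centring on the median and 0.12 after quantile normalization.

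Partners and repressors of EGR and AP-1 proteins numbered 14 measured genes, of which 0 were called. In either direction 0 had an unadjusted p under 0.05, where 3.87% of all clusters were higher and 5.9% lower. Their median log2 difference was -0.047. MAFG, a small MAF protein read from the brightest of its 3 clusters, had -0.29 with groups that did not overlap. JDP2 and BATF2, both relatives of the AP-1 proteins, had 0.25 and 0.29 with overlapping groups. Among the known targets of EGR1 or AP-1, 21 were measured and 0 were called. At an unadjusted p under 0.05, 2 of the 21 were higher, where 3.87% of all clusters were higher. TIMP1, an inhibitor of matrix metalloproteinases with an AP-1 site in its promoter, passed both thresholds of the series. It was 8.46, 8.55 and 8.34 in leaf-treated samples, against 7.93, 7.86 and 7.62 in untreated samples, a log2 difference of 0.65 with a standard error of 0.11 (limma, adjusted p = 0.30). The other was PDGFA, a growth factor gene, with 0.30 and groups that overlapped. VIM, an intermediate filament gene with the next p, was not above the background stand-in on any array. The median of the 21 was 0.034.

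The other Krüppel-like genes, 16 in number, had a median log2 difference of 0.060 that turned to -0.0047 after centring on the median. The mean was higher in leaf-treated cells for 13 of the 16, where 53.2% of all tested clusters were higher. Of the 16, 0 were called and 0 had an unadjusted p under 0.05 in either direction, where 3.87% of all clusters were higher and 5.9% lower. KLF14, KLF12 and KLF2 had the smallest p, with log2 differences of 0.15, 0.19 and 0.11, and KLF2 is also among the other immediate early genes. KLF12 was not above the background stand-in on any array, and KLF14 was on 5. KLF6 at 0.47 was thus above each of the other 16 genes of its family, though no test of that difference was made.

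**Figure D4:**
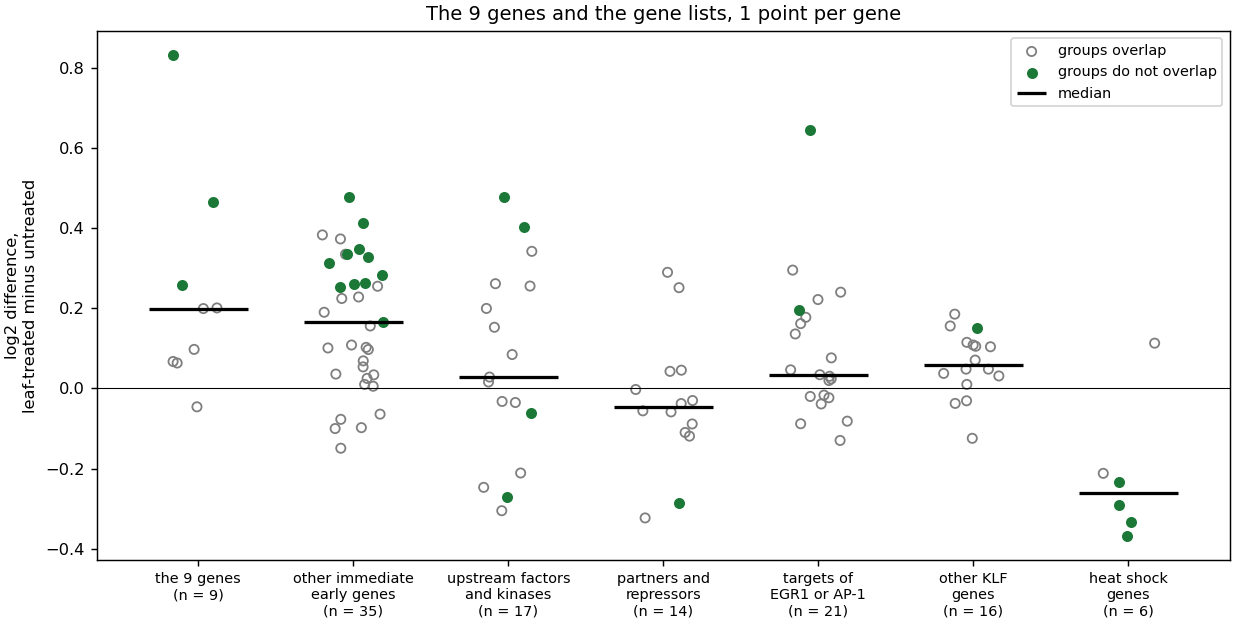
Log2 difference, leaf-treated minus untreated (y axis), with 1 point per gene for the 9 genes and 6 gene lists (x axis). Filled points are genes whose groups do not overlap, and black lines are medians. Other immediate early genes have a median of 0.17 and heat shock genes one of -0.26.

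Markers that could move with cell handling or with other cells were measured beside these genes. Of 6 measured heat shock genes, which respond to handling, 0 were called, and the median log2 difference was -0.26. HSPA1A and HSPA1B were on the list but not among the measured genes. At an unadjusted p under 0.05, 3 of the 6 were lower, where 5.9% of all clusters were lower. Groups did not overlap for 4 of the 6, all lower, where the background was 7.41% of clusters lower. HSPH1, HSPA8 and DNAJA1, which encode chaperones, had -0.23, -0.29 and -0.37, each with groups that did not overlap. HSPB1 went the other way, with 0.11 and overlapping groups. The log2 values of the 6 summed to 45.5 to 46.3 in leaf-treated and 46.96 to 47.6 in untreated samples. Of 7 stromal markers 1, COL1A1, was above the background stand-in on every array and 3 were above it on none, and their values summed to 22.3 to 23.6 in leaf-treated and 22.1 to 22.9 in untreated samples. COL3A1 and COL1A2 had log2 differences of 0.34 and 0.042 with overlapping groups. Of 5 leukocyte markers, PTPRC and CD3E were above it on no array, LYZ and CD68 were above it on all, and the sums were 26.3 to 26.5 in leaf-treated and 25.97 to 26.4 in untreated samples. CD14 was above it on 2 arrays. The 4 measured squamous markers summed to 16.8 to 17.8 in leaf-treated and 16.4 to 16.8 in untreated samples, and KRT16, KRT14 and KRT5 had log2 differences of 0.27, 0.34 and 0.20. The 9 hepatocyte markers summed to 86.8 to 88.5 in leaf-treated and 87.9 to 88.4 in untreated samples, and TTR, AFP and APOA1 had log2 differences of 0.19, -0.15 and -0.16. The part of these shifts in the immediate early genes was not tested, and in such bulk RNA a change in the share of cells and a change in RNA per cell cannot be told apart.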

How the data were processed

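RNA of 3 leaf-treated and 3 untreated HepG2 samples was read on Affymetrix Human Gene 1.0 ST arrays. The log2 expression values used here are those the authors deposited as 1 table. The submitters' processing notes list GCOS, Partek and RMA with no version, and the RMA settings were not found in the sources. RMA subtracts background, is meant to equalise the arrays and combines probes into clusters, which can compress small differences between dim clusters. Over the tested clusters the lower quartile was 3.14 on leaf-treated arrays 1 and 3, and 3.03 to 3.08 on the other arrays. The upper quartile was 5.19 and 5.18 on those 2 arrays, and 5.26 to 5.345 on the others. After quantile normalization the log2 difference was lower for FOS (0.14), FOSB (0.14), EGR3 (0.20) and IER2 (-0.0021). It was higher for EGR1 (0.95), KLF6 (0.50), FOSL1 (0.14), JUN (0.15) and JUNB (-0.019). The cause was not tested. Of 33297 rows, 4468 at 0 on every array were dropped, 1735 had several symbols and 7803 were unnamed here. The remaining 19291 clusters, named through GRCh38.p14 symbols, were tested with limma 3.58.1 in R 4.3.3 and adjusted by Benjamini-Hochberg over all of them. The test was checked on simulated data. The brightest cluster stands for a gene in a list.

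The members and gene lists were chosen with earlier results of these data known. Named were the 9 measured members, EGR4, FOSL2 and JUND, the 3 genes nearest to EGR1 and to KLF6, and in each list the genes past the series' thresholds and the 3 with the smallest p. Labels call the replicates biological without naming separate cultures, and a p-value here covers only sample-to-sample spread, which may be technical. The number of arrays limits precision. Alternatives were quantile normalization, median centring, a filter on dim clusters, array weights, a robust fit with an intensity trend, the series' analysis of variance, averaged clusters, a replicate block and leaving out each array.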

Additional observations from a re-analysis of the deposited data

How the results depend on the processing

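The call of EGR1, and of no other member, by the series' thresholds was the same under all 14 alternatives, which is a description, since EGR1 was chosen from this comparison. Over those 14 the log2 difference ranged from 0.77 to 0.95 for EGR1, from 0.39 to 0.54 for KLF6 and, in 13 of them, from 0.20 to 0.34 for EGR3, which the filter on dim clusters left out. JUNB changed sign in 3, IER2 in 2 and FOSL1 in 1. The median of the 9 genes was 0.091 to 0.30.

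Over all clusters, the count called after adjustment was 1, and 8 after quantile normalization, 3 after centring, 4 without dim clusters, 2 with the intensity trend, 3 with array weights, 2 with averaged clusters, and 0 with the series' analysis of variance, with the replicate block and without any 1 array (0 to 0). With leaf-treated array 2 as the only treated array, a setting chosen after seeing the data in which the untreated arrays alone give the spread, it was 0. The series' thresholds were passed by 162 clusters, 52 higher and 110 lower, by 101 in the analysis of variance, and by 111 to 490 with 1 array left out, the highest without leaf-treated array 2. Quantile normalization gave 63 higher and 80 lower, centring 30 and 189, and leaving out leaf-treated array 2 gave 167 and 323. The cause of these shifts was not tested. To look for pairing, each cluster's group mean was subtracted from its values, and the remaining departures of leaf-treated and untreated arrays were correlated over all clusters. These correlations of departures were -0.11, -0.18 and 0.12 for same-numbered arrays. Those of unlike-numbered arrays spanned -0.19 to 0.27. With 3 arrays in each group, these values cannot decide whether the replicate number stands for a shared culture or day. Under the replicate block, 165 clusters passed the thresholds. Clusters near the background stand-in, EGR3, IER2 and FOSB among them, have no reliable size.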
